A study of Mus musculus with 2 samples.

Results

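The BH3-only genes encode the members of the BCL2 family that start apoptosis. They were examined in the leukemic stem cells (LSCs) that BCR-ABL produces in mice as a model of chronic myeloid leukemia (CML), to ask which of them the cells expressed and how the levels compared with and without STAP-1, a signal-transducing adapter protein. The members were fixed by name as Bcl2l11, Bid, Bad, Bbc3, Pmaip1, Bmf, Bik, Hrk, Bnip3 and Bnip3l, and 10 of 10 were found among the 23284 gene symbols of the expression files. RNA-seq had been performed on WT CML LSCs (1 library) and STAP-1 KO CML LSCs (1 library). Both were LSK cells on the C57BL/6J background, which lack lineage markers and carry Sca-1 and c-Kit. All donor cells, WT and STAP-1 KO, had been infected with a retrovirus that drives human p210 BCR-ABL and green fluorescent protein (GFP) from the MSCV promoter, so that both groups carried the oncogene. The cells had been transplanted into lethally irradiated C57BL/6SJL recipients together with normal bone marrow, and 11 days later LSK cells positive for GFP and CD45.2 were sorted. Mice were between 8 and 14 weeks old. The STAP-1 KO donors carried a targeted disruption of the Stap1 locus in the germ line. The number of mice behind each library was not given in the sources used here. With 1 library a group there was no replicate check, and no p-value was computed.

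BH3-only proteins share with the rest of the family a short helix, the BH3 domain, and lack the other BCL2 homology domains. Through this helix they occupy the groove of the survival proteins BCL2, BCL-XL, BCL-W, MCL1 and A1, and some of them also activate BAX and BAK directly, which then permeabilize the outer mitochondrial membrane. The members answer to different kinds of stress. In cells driven by BCR-ABL, the BIM protein and its relatives are known as mediators of death when the kinase is inhibited, since kinase signaling otherwise keeps them low. BNIP3 and BNIP3L are atypical members that are better known as receptors for mitophagy, the removal of mitochondria by autophagy.

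The feature that unites the members can be read in their coding sequences. A core of a leucine codon, 3 further codons, a codon for glycine, alanine or serine and a codon for aspartate was searched in the longest complete coding sequence of each gene in GENCODE M21 (GRCm38), and 10 of 10 members held it. Genes grouped by their BH3 domain were searched for a BH3 core, so this count could be foreseen and is no finding about them. The letters are not specific, since the core was present in 33.8% of 21763 genes with a complete coding sequence. Pmaip1 held 2 cores, at codons 27 to 32 and 78 to 83 of 103, and each of the other members held 1. The sequences of 6 of the 7 members with 1 FPKM or more are shown, that of Pmaip1 not being used here, with 4 codons on each side of the core, because they show how far the typical members and the BNIP3 type differ at the site for which the group is named. Capitals mark the leucine codon and the last 2 codons of the core.
Bcl2l11, exon 3 of 4, chr2:128147138-128147179, plus strand: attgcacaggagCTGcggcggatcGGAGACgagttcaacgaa
Bid, exon 4 of 6, chr6:120897286-120897327, minus strand: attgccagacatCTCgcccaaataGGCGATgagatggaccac
Bad, exon 3 of 4, chr19:6950780-6950821, plus strand: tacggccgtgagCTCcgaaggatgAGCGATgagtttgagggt
Bbc3, exon 3 of 4, chr7:16313761-16313802, plus strand: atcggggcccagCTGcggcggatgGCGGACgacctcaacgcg
Bnip3, exon 4 of 6, chr7:138894642-138894683, minus strand: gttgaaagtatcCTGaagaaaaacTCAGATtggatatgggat
Bnip3l, exon 4 of 6, chr14:66989438-66989479, minus strand: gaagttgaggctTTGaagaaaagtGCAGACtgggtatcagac

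Expression was given as FPKM, a count of fragments scaled for transcript length and for library size, so that levels can be compared between genes. The steps between low values gave an effective depth of 7500000 reads in WT and of 10470000 reads in STAP-1 KO LSCs, from which the reads behind a value were estimated. These depths can include a scaling between the libraries, which is not stated, so they are not numbers of mapped reads, and the estimated reads and their intervals are approximate. The intervals below are exact 95% intervals from these reads. They cover counting error only and take each read as independent. Reads amplified by PCR without molecular identifiers are not independent molecules, so the intervals can be too narrow even for that error. Stap1 itself had 61.95 FPKM in WT and 0.309 FPKM in STAP-1 KO LSCs, 200.6-fold lower, in the direction that the genotype labels give.

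The libraries also differed in genes that mark cell types, and these values belong beside all that follows. Of all 12507 genes with 0.1 FPKM or more in both libraries, 12.3% were at least 2-fold higher in STAP-1 KO LSCs and 22.9% at least 2-fold lower. Of 10 mast cell and basophil markers, 10 were at least 2-fold lower in STAP-1 KO LSCs, and their sum was 51800 FPKM in WT and 5275 FPKM in STAP-1 KO LSCs. Of 5 primary granule markers of early neutrophils, 5 were at least 2-fold higher, with sums of 563.6 and 4623 FPKM. Among 9 genes of the LSK sort and of stem cells, 1 was higher and 4 were lower, and Kit, which encodes the sort antigen c-Kit, had 468 FPKM in WT and 30.1 FPKM in STAP-1 KO LSCs. Beside 12.3% and 22.9% of all genes compared, 1 of the 6 erythroid markers listed was higher and 2 were lower. Their sum of 1243 and 662 FPKM is uncertain, because it rests on the globin copies Hba-a2 (773 and 15.9 FPKM) and Hba-a1 (34.8 and 380 FPKM), between which reads can be divided arbitrarily, while Car1 had 250.2 and 88.4 FPKM, Klf1 103.1 and 108.4 FPKM and Epor 28.8 and 28.5 FPKM. The sums were for megakaryocyte markers 211.6 and 133.4 FPKM, and for monocyte or macrophage markers 118.7 and 129.7 FPKM. T cell markers summed to 15.3 and 49.1 FPKM and B cell markers to 3.58 and 18.8 FPKM, with Pax5 and Ebf1 at 0 in both libraries. The part of these differences in the BH3-only values was not tested. In bulk RNA, fewer cells of a type and less RNA per cell cannot be told apart.

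Of the 10 BH3-only genes, 7 were expressed at 1 FPKM or more, and each of the 7 passed this level in both libraries. Over all listed genes, 48.9% reached 1 FPKM in 1 or both libraries. In the WT library the order ran from Bnip3 (83.4 FPKM) through Pmaip1 (66.9 FPKM) and Bid (57.0 FPKM) to Bad (24.98 FPKM) and Bnip3l (23.8 FPKM), then Bbc3 (10.2 FPKM) and Bcl2l11 (3.18 FPKM). Bad and Bnip3l did not differ beyond their counting intervals, and every other neighbor among these 7 did. In the STAP-1 KO library Bid (80.5 FPKM) stood first, before Pmaip1 (43.0 FPKM). Bnip3 (26.5 FPKM) came next, at a level that overlapped with that of Bad (23.8 FPKM), and Bad in turn overlapped with Bnip3l (19.7 FPKM). Bbc3 (4.65 FPKM) and Bcl2l11 (2.43 FPKM) again closed the order. The leading position thus belonged to a mitophagy receptor gene in WT and to Bid in STAP-1 KO LSCs. Bnip3 made up 30.9% of the summed FPKM of the members in WT and 13.2% in STAP-1 KO LSCs, whereas Bid made up 21.1% and 40.1%.

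**Figure D1:**
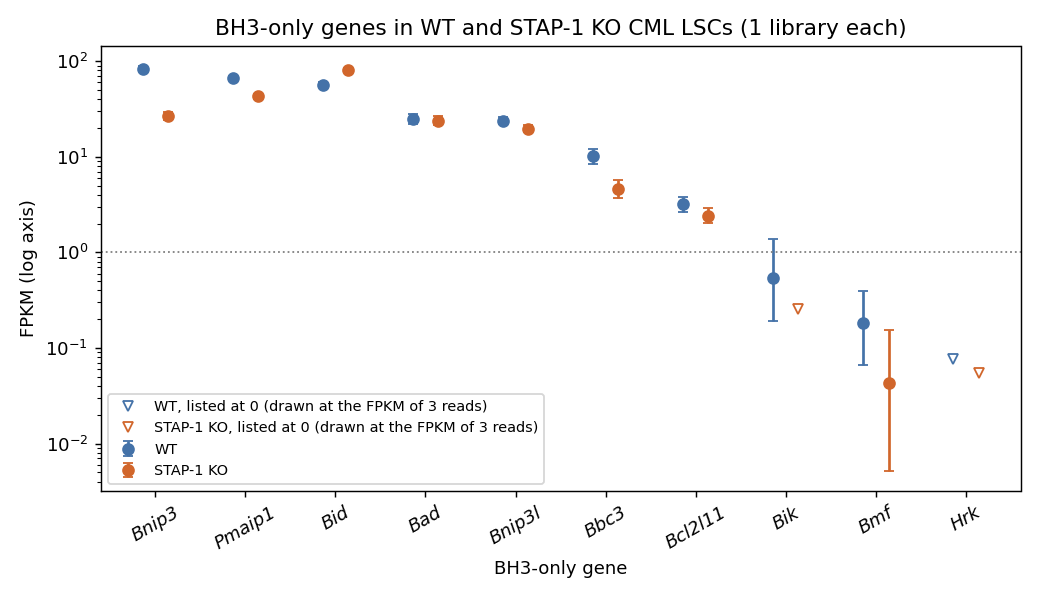
FPKM of the 10 BH3-only genes on a log axis in WT LSCs (blue) and STAP-1 KO LSCs (orange), with exact 95% counting intervals. Triangles are values listed at 0 and stand at the FPKM that 3 reads would give, and the dotted line is 1 FPKM. Bnip3 has the largest gap between the libraries among the 7 genes above the line, and Bid is the 1 gene of the 7 that is higher in STAP-1 KO LSCs.

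At a cut-off of 2-fold, with 0.1 FPKM or more in both libraries, 7 members could be compared. None of them was 2-fold higher in STAP-1 KO LSCs, while 12.3% of all 12507 genes compared were. Bnip3 and Bbc3 were 2-fold lower, 28.6% of the 7 members, while 22.9% of all genes compared were lower by as much. These shares lie too near the background to be a result about the BH3-only genes as a group. The values below are therefore those of single genes. Of the 7, 6 had a lower value in STAP-1 KO LSCs and 1 a higher value, while 5671 of all 10974 genes with a mean of 1 FPKM or more had a lower one. The log2 ratio is that of the STAP-1 KO to the WT value after adding 0.1 FPKM to each, which makes differences of low values look smaller. The median log2 ratio over the 7 members was -0.37, and over the 10974 genes with a mean of 1 FPKM or more it was -0.04.

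Bcl2l11, Bbc3 and Bid encode BIM, PUMA and BID, which bind all of the survival proteins and can also activate BAX and BAK. Bcl2l11, on chromosome 2 of GRCm38 from 128126038 to 128162547 (plus strand), had 3.18 FPKM (interval 2.62 to 3.81) in WT and 2.43 FPKM (2.02 to 2.90) in STAP-1 KO LSCs. It was the lowest of the 7 expressed members, above 15.3% and 13.2% of the genes with 1 FPKM or more in the respective library. The ratio was 0.765, with a counting interval from 0.589 to 0.997. This interval rests on 115 and 123 reads estimated for the longest transcript of 5036 bases. With the shortest coding transcript it ran from 0.316 to 1.96 and took in equal levels. Once the length and GC content of transcripts were corrected for, the log2 ratio of -0.37 became 0.08. BIM is made in several spliced forms of unequal potency, which a value per gene does not separate.

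Bbc3, on chromosome 7 from 16308393 to 16318205 (plus strand), is a classical p53 target. It had 10.2 FPKM (8.49 to 12.2) in WT and 4.65 FPKM (3.67 to 5.79) in STAP-1 KO LSCs. The level was 2.19-fold lower, a ratio of 0.456 with a counting interval from 0.338 to 0.608. The counting intervals of the libraries did not overlap, yet the interval of the ratio held the 2-fold cut-off within it, and with the shortest coding transcript it ran from 0.192 to 1.14 and took in equal levels. Over all genes with a mean of 1 FPKM or more, 19.9% had a lower ratio. Bbc3 has the highest GC content of the expressed members, 65.2% over its longest transcript.

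Bid, on chromosome 6 from 120891930 to 120916853 (minus strand), encodes a protein that caspase-8 and granzyme B cut into its active form and that links death receptors to mitochondria. It had 57.0 FPKM (53.4 to 60.7) in WT and 80.5 FPKM (76.9 to 84.2) in STAP-1 KO LSCs. It was thus higher in STAP-1 KO LSCs, by a ratio of 1.41 (1.31 to 1.53), and stayed above 1 with the shortest coding transcript (1.15 to 1.74). This did not pass the 2-fold cut-off. The level of Bid stood above 81.3% of expressed genes in WT LSCs and above 85% in STAP-1 KO LSCs. Bid shares 628 exon bases with Bcl2l13 on the opposite strand, and the library preparation did not keep the strand. Bcl2l13 had 19.0 FPKM in WT and 13.6 FPKM in STAP-1 KO LSCs, the reverse direction.

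Bad, Pmaip1, Bmf, Bik and Hrk encode members that neutralize survival proteins, each with its own partners. BAD binds BCL2, BCL-XL and BCL-W and is held inactive by phosphorylation and 14-3-3 proteins. Bad, on chromosome 19 from 6941861 to 6951899 (plus strand), had 24.98 FPKM (21.95 to 28.3) in WT and 23.8 FPKM (21.3 to 26.5) in STAP-1 KO LSCs. Its ratio of 0.953 had an interval from 0.806 to 1.13, which holds 1, so that no difference was detectable at this depth and differences of the size of the cut-off lie outside the interval. The gene shares 524 exon bases with Gpr137 on the opposite strand, which had 14.3 FPKM in WT and 7.92 FPKM in STAP-1 KO LSCs, so that reads of one may have been counted for the other.

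Pmaip1 encodes NOXA, which binds MCL1 and A1, and it lies on chromosome 18 from 66458533 to 66465565 (plus strand). The level was 66.9 FPKM (63.2 to 70.6) in WT and 43.0 FPKM (40.6 to 45.6) in STAP-1 KO LSCs. This was 1.55-fold lower (ratio 0.644, interval 0.594 to 0.698) and below the cut-off. The gene ranked above 84.1% of expressed genes in WT LSCs and above 73.5% in STAP-1 KO LSCs. Its log2 ratio of -0.63 became -1.10 once the length and GC content of transcripts were corrected for, which would place it past 2-fold.

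Bmf, Bik and Hrk were at or near the limit of detection. BMF is bound to the cytoskeleton through dynein light chains until it is released, BIK sits at the endoplasmic reticulum, and HRK is best known from neurons. Bmf, on chromosome 2 from 118528757 to 118549687 (minus strand), had 0.181 FPKM in WT and 0.0432 FPKM in STAP-1 KO LSCs, about 6.01 and 2.00 reads on its transcript of 4642 bases. The ratio of 0.239 had a counting interval from 0.0236 to 1.34, so that no difference was detectable. Bik, on chromosome 15 from 83526862 to 83544634 (plus strand), had 0.544 FPKM in WT LSCs, about 4.602 reads on its longest transcript of 1335 bases or 3 on one of 942 bases. It was listed at 0 in STAP-1 KO LSCs, where 3 reads would have given 0.254 FPKM on the longest transcript and 0.39 FPKM on the other. Hrk, on chromosome 5 from 118164648 to 118189478 (plus strand), was listed at 0 in both libraries, and 3 reads would have given 0.0773 FPKM in WT and 0.0554 FPKM in STAP-1 KO LSCs. No fold is given for Bik and Hrk.

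Bnip3 and Bnip3l encode the mitophagy receptors BNIP3 and NIX, which bind LC3 and GABARAP proteins on the autophagosome, and both genes are known to respond to hypoxia through HIF. Bnip3, on chromosome 7 from 138890836 to 138909519 (minus strand), had 83.4 FPKM (78.2 to 88.8) in WT and 26.5 FPKM (24.1 to 29.2) in STAP-1 KO LSCs. With 968 and 430 estimated reads the intervals lie far apart. The level was 3.14-fold lower, a ratio of 0.318 with an interval from 0.283 to 0.357, and with the shortest coding transcript the interval ran from 0.259 to 0.389, wholly beyond 2-fold. This was the lowest ratio among the expressed members, and 11.7% of genes had a lower one. An antisense gene, Gm45507, shares 504 exon bases with Bnip3, and it is not listed in the files, so its share of the reads is unknown.

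Bnip3l, on chromosome 14 from 66985239 to 67008877 (minus strand), had 23.8 FPKM (21.9 to 25.9) in WT and 19.7 FPKM (18.2 to 21.3) in STAP-1 KO LSCs. Its ratio of 0.827 had a counting interval from 0.737 to 0.930, which does not hold 1, and was much closer to 1 than that of Bnip3. The intervals of the ratios of these related genes do not overlap. Together they summed to 107.2 FPKM in WT and 46.25 FPKM in STAP-1 KO LSCs. The other 8 members summed to 162.9 and 154.5 FPKM, a ratio of 0.948 in which the higher value of Bid largely offsets the lower value of Pmaip1. The sum over the 10 members was 270.1 FPKM in WT and 200.7 FPKM in STAP-1 KO LSCs, and the difference of Bnip3 was the largest of any member.

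**Figure D2:**
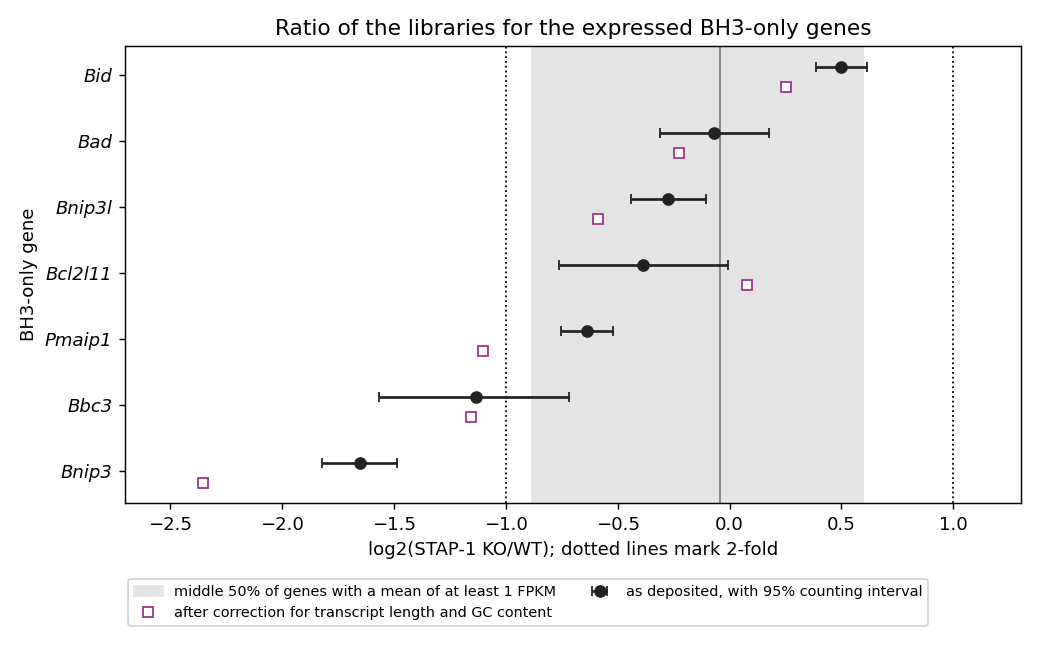
Log2 ratio of STAP-1 KO to WT FPKM for the 7 expressed BH3-only genes. Black points, without a pseudocount, carry the 95% counting interval, open squares are log2 ratios corrected for length and GC content of the transcript, the dotted lines mark 2-fold, the gray line is the median of all genes with a mean of 1 FPKM or more, and the band, from -0.88 to 0.59, holds the middle 50% of the 10863 of them with an annotated transcript. Squares, line and band are of ratios with 0.1 FPKM added to each value. Bnip3 and Bbc3 lie to the left of 2-fold, Pmaip1 moves past it after the correction, and Bid is to the right of 0.

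The promoter of Bnip3 is shown because HIF factors bind a short motif with the core ACGTG and because the level of this member differed most among those expressed. The 250 bases before its start, chr7:138909507-138909756 on the minus strand (RefSeq, GRCm38.p6), were searched for ACGTG on both strands, and capitals mark the overlapping matches on the 2 strands, which begin 107 and 108 bases upstream of the start.
Bnip3 promoter: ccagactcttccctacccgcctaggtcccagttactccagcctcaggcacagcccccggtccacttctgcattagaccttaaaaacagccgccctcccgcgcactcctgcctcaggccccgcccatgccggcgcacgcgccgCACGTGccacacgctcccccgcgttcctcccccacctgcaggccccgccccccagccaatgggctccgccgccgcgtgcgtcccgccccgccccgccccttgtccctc
ACGTG was present in 16.6% of all 32851 promoter windows of this length. Among the members it was also present in 1 of 3 windows of Bbc3. No match was present in the windows of Bcl2l11, Bid, Bad, Bmf and Hrk, which says only that these letters are missing there. HIF sites may also hold GCGTG, which was present in 28.2% of all windows, in the window of Bnip3, in 3 of 3 windows of Bbc3, 2 of 2 of Bad and 1 of 2 of Bcl2l11, and in none of Bid, Bmf and Hrk. The window of Bnip3 and 1 of 3 of Bbc3 thus held both forms, and 2 of 2 of Bad and 1 of 2 of Bcl2l11 held GCGTG without ACGTG. How many of all windows hold both forms was not counted, and a link of these letters to the levels was not tested. RefSeq windows for Pmaip1, Bik and Bnip3l were not used here. The 6 letters in capitals also form the E-box that MYC and related factors bind, so the match does not name a factor.

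The ratio of the libraries depended on transcript length across all genes, and the members were placed against it. Over 10863 genes with a mean of 1 FPKM or more and an annotated transcript, Spearman's rho of the log2 ratio with the longest transcript was -0.37, a description across genes of 1 pair of libraries. The group of 1087 genes of at most 1299 bases had a median log2 ratio of 0.51, and the 1087 genes of at least 6379 bases had -0.98. Bnip3 (1756 bases) had -1.65 where the 748 genes within 10% of its length had a median of 0.39. Bbc3 (1814 bases) had -1.12 against 0.39 for 784 genes, and Pmaip1 (2727 bases) had -0.63 against 0.14 for 1335 genes. These 3 genes therefore stood lower beside genes of like length than beside all genes. Bad (1533 bases) was at -0.07 against 0.42 for 590 genes, and Bnip3l (3259 bases) at -0.27 against 0.04 for 1500 genes. Bid (2415 bases) was at 0.50 against 0.26 for 1093 genes. Bcl2l11, with a long transcript, was at -0.37 against -0.51 for 1170 genes, and after the correction for length and GC content its log2 ratio was 0.08, on the other side of 0. Its small deficit therefore does not hold under that correction.

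**Figure D3:**
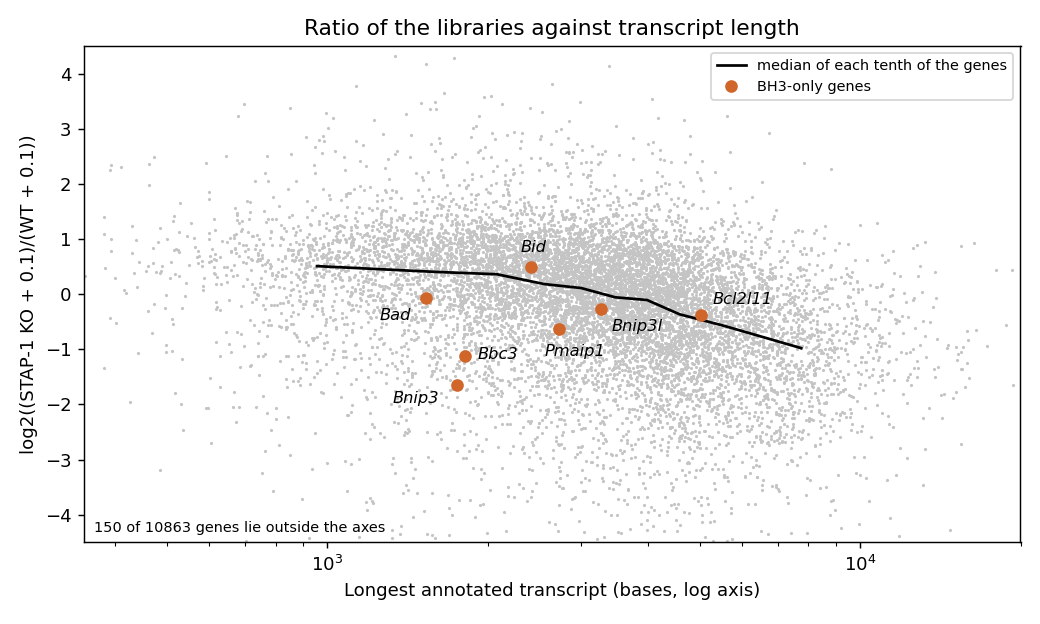
Log2((STAP-1 KO + 0.1)/(WT + 0.1)) against the length of the longest annotated transcript (log axis) for 10863 genes with a mean of 1 FPKM or more (gray), of which 150 lie outside the axes. The line joins the medians of 10 about equal groups of genes by length, and the 7 expressed BH3-only genes are in orange. Bnip3, Bbc3, Pmaip1, Bad and Bnip3l lie below the line, and Bid and Bcl2l11 lie above it.

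The survival proteins are the direct targets of the members. Of 8 survival genes, 7 could be compared, and 3 of them (Bcl2l1, Bcl2a1b and Bcl2a1d) were 2-fold lower in STAP-1 KO LSCs and none was higher, beside 22.9% lower and 12.3% higher of all genes compared. The median log2 ratio was -1.07 over the 6 with a mean of 1 FPKM or more. With so few genes, some of them near-identical copies, the count is no result about the survival genes as a group. Bcl2l1, which encodes BCL-XL, had 57.7 FPKM in WT and 19.8 FPKM in STAP-1 KO LSCs. Bcl2 had 68.9 and 36.2 FPKM, which missed the cut-off. For this gene, with a longest transcript of 7191 bases, the correction for length and GC content moved the log2 ratio from -0.93 to -0.09. Mcl1, the partner of NOXA, had 142 and 103 FPKM. Of the A1 genes, Bcl2a1b had 7.68 and 3.26 FPKM, Bcl2a1d 4.08 and 1.3 FPKM and Bcl2a1a 2.27 and 1.46 FPKM, but these are near-identical copies whose reads can be divided arbitrarily. Bcl2l2 had 0.492 and 0.382 FPKM, and Bcl2l10 was listed at 0 in both libraries. The summed FPKM of the 8 survival genes was 283.6 in the WT and 165.8 in STAP-1 KO LSCs, a ratio of 0.585, beside 0.743 for the 10 BH3-only genes and 0.948 for the 8 that remain without Bnip3 and Bnip3l. These sums are of FPKM without the correction for length and GC content, and corrected sums were not computed. Beside Bcl2, the correction moved the log2 ratio of Pmaip1 from -0.63 to -1.10 and that of Bid from 0.50 to 0.25. The contrast between the 3 ratios can therefore depend on it. The sums have no replicate error, and the difference between the ratios was not tested. Of the effectors that open the mitochondrial membrane, Bax had 163.9 and 144.7 FPKM and Bak1 had 1.64 and 1.38 FPKM. Bok, a relative of uncertain role that was 2-fold higher, had 1.31 FPKM in WT and 6.32 FPKM in STAP-1 KO LSCs.

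Genes of proteins that activate or hold BH3-only proteins were taken next, in 1 list with Huwe1, Moap1 and Becn1, whose roles are described with their values. Of these 15 genes, 15 could be compared, 3 were 2-fold lower and none was higher, again beside 22.9% and 12.3% of all genes, and the median log2 ratio of the 14 with a mean of 1 FPKM or more was 0.15, which the same correction brought to -0.05. Of the proteases that cut BID, Casp8 had 50.2 FPKM in WT and 92.8 FPKM in STAP-1 KO LSCs, below the cut-off. Gzmb, which encodes granzyme B, had 9642 and 2302 FPKM and was 2-fold lower. Bid and Casp8 thus both had higher values in STAP-1 KO LSCs and Gzmb a lower value. Mtch2, the mitochondrial receptor of cleaved BID, had 71.6 and 100.5 FPKM.

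Dynll1 and Dynll2 encode the light chains that tether BIM and BMF, and they had 83.8 and 9.88 FPKM in WT and 149 and 10.9 FPKM in STAP-1 KO LSCs. Of the 7 genes for 14-3-3 proteins, which hold BAD, Sfn was 2-fold lower at 1.71 and 0.272 FPKM. The other 6 missed the cut-off, with Ywhab at 199 and 178 FPKM, Ywhae at 190 and 272 FPKM, Ywhah at 170 and 189 FPKM and Ywhaz at 179 and 153 FPKM. Ywhag had 64.9 and 45.4 FPKM and Ywhaq 39.1 and 73.4 FPKM. Huwe1, which encodes a ubiquitin ligase of MCL1, was 2-fold lower at 4.49 and 2.23 FPKM. With 0.1 FPKM added to each value its log2 ratio was -0.98, just short of 2-fold, and -0.07 with the correction. Moap1, a partner of BAX, had 12.3 and 6.13 FPKM, just short of the cut-off, and -1.39 with the correction. Becn1, the autophagy protein with a BH3 domain of its own, had 97.1 and 108 FPKM.

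Several transcription factors are known to drive BH3-only genes, p53 and p73 Bbc3 and Pmaip1, FOXO factors Bcl2l11 and Bbc3, ATF4 and CHOP several members, and HIF the genes of the mitophagy receptors. The list of 12 regulators held these and other factors, among them the repressor Bach2, so its counts are not about drivers alone. Of the 12, 9 could be compared, 1 was 2-fold higher and 4 were 2-fold lower (12.3% and 22.9% of all genes). Their median log2 ratio of -0.70 turned to 0.09 with the correction for length and GC content. Trp53 had 106.9 FPKM in WT and 191 FPKM in STAP-1 KO LSCs, below the cut-off, and Trp73 was listed at 0 in both. Hif1a was 2-fold lower, at 130 FPKM in WT and 36.5 FPKM in STAP-1 KO LSCs, as Bnip3 was. Epas1, which encodes the related HIF-2 alpha, had 0.363 and 0.0743 FPKM. Foxo3 (1.44 and 0.677 FPKM) and Foxo1 (5.37 and 1.43 FPKM) were 2-fold lower, while Foxo4 had 0.587 and 0.097 FPKM and was under the floor. With 0.1 FPKM added to each value, Foxo3 had a log2 ratio of -0.99 before the correction and 0.09 after it. On this scale Foxo3 was just short of 2-fold before the correction too. The log2 ratio of Foxo1 was -1.84 before and -0.89 after, so that it did not stay past 2-fold. The values of Bach2, a repressor in hematopoietic cells, were 1.71 and 0.415 FPKM and 2-fold lower, which was lost with the correction (log2 ratio -0.87). Myc was 2-fold higher, at 59.3 and 169 FPKM. Atf4 had 114 and 177 FPKM and E2f1 18.7 and 29.1 FPKM. Ddit3, which encodes CHOP, had 59.0 and 36.2 FPKM, and its log2 ratio of -0.70 passed 2-fold with the correction, at -1.335.

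Other targets of p53 and HIF were set beside the members that these factors share with them. Of 20 p53 targets outside the BH3-only group, 10 were 2-fold lower and 2 were 2-fold higher, beside 22.9% and 12.3% of all genes, with a median log2 ratio of -0.90, while the median of all genes was -0.04. The most abundant were Cdkn1a, the cell cycle inhibitor p21, at 217 FPKM in WT and 66.4 FPKM in STAP-1 KO LSCs, Ccng1 at 146 and 68.6 FPKM, and Btg2 at 63.4 and 52.5 FPKM. Bbc3 and Pmaip1, at -1.12 and -0.63, lay on the same side of 0 as 14 of these 20 genes and as 5671 of all 10974 genes with a mean of 1 FPKM or more. Of 20 HIF targets, 7 were 2-fold lower (22.9% of all genes) and 1 was 2-fold higher (12.3% of all genes), with a median of -0.75. Ldha had 2540 and 1990 FPKM, Aldoa 1111 and 687 FPKM, and Ero1l, an oxidase of the endoplasmic reticulum, 996 and 92.5 FPKM. Bnip3, at -1.65, lay below the median of the HIF targets and Bnip3l, at -0.27, above it. All lists were read in the same 2 libraries, and no test sets them apart from other genes.

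**Figure D4:**
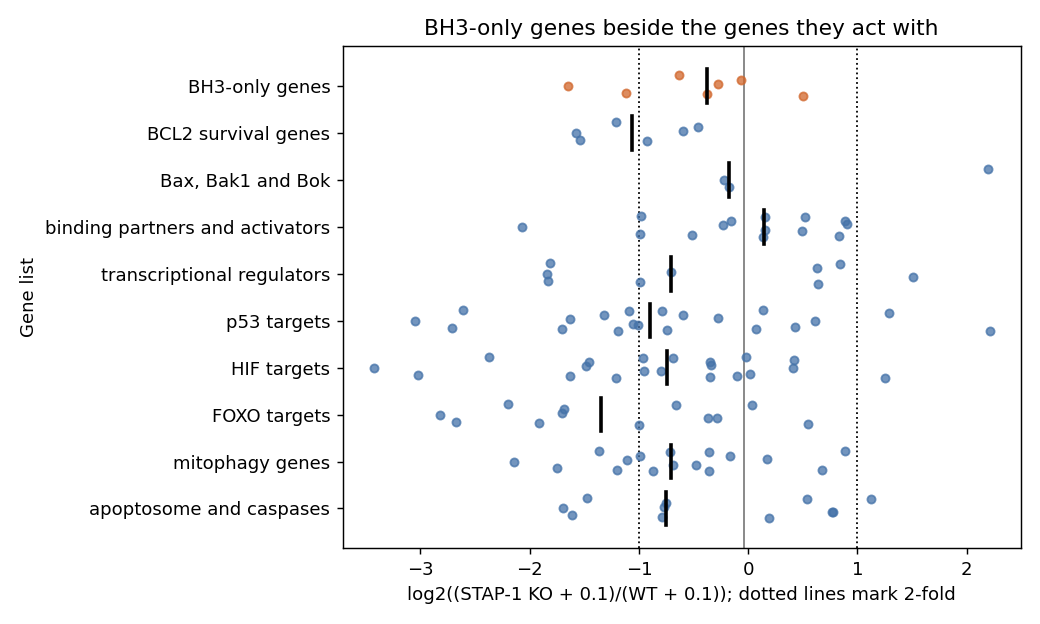
Log2((STAP-1 KO + 0.1)/(WT + 0.1)) of each gene with a mean of 1 FPKM or more in the BH3-only group (orange) and in the other gene lists (blue), with a black bar at the median of each list. The gray line is the median of all genes and the dotted lines mark 2-fold. The median of the BH3-only genes, -0.37, lies between those of the survival genes, -1.07, and of Bax, Bak1 and Bok, -0.18.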

How the data were processed

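The authors extracted total RNA from sorted cells (an RNeasy kit in the methods, a miRNeasy kit in the labels), amplified cDNA with SMART-Seq v4, made Nextera XT libraries and sequenced 75-base single reads. They mapped these to mm10 with TopHat2 2.0.13 and Bowtie2 2.2.3 and deposited the FPKM values of Cuffnorm (Cufflinks 2.2.1). The gene annotation and the scaling between libraries were not given in the sources used here.

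From these FPKM values, ratios, counts and medians were computed with Python 3.11.15, pandas 2.3.3, numpy 2.4.6 and scipy 1.17.1. A gene counted as higher or lower at 2-fold with 0.1 FPKM or more in both libraries, and medians used genes with a mean of 1 FPKM or more. Symbols were matched to GENCODE M21, 20911 as written, 1915 through an older symbol and 458 not at all. Estimated reads are FPKM times the longest transcript less 208 bases times the effective depth, and whole reads (tolerance 0.01) came out for 46.6% of 326 low values in WT and 48% of 402 in STAP-1 KO LSCs. Ratio intervals are Clopper-Pearson intervals and level intervals are exact Poisson intervals. The correction subtracted medians in 20 bins of length and of GC content. The steps were tested on simulated data.

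The members and gene lists were chosen with earlier results of these data known, and the comparison with genes within 10% of a member's length was added after the values were seen. All members, survival genes, effectors, partners and regulators were named, and of other lists the 3 genes with the highest mean, beside markers at 0, overlapping genes, and Klf1, Epor and Sesn3, which were chosen after their values were seen. Of the marker lists, genes were named only where a result turned on them. Some genes that this rule selects are not reported here. Alternatives changed the floor, cut-off, pseudocount, scaling, minimum mean, transcript and correction.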

Additional observations from a re-analysis of the deposited data

How the results depend on the processing

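Of 143 values recomputed under the alternatives, 119 moved by less than their counting error or, for counts, by no more than 1.5 times, 24 moved by more, and in 0 did a value past the cut-off change direction. The number of BH3-only genes that were 2-fold lower was 2, and it was 0 at a 4-fold cut-off. With any value above 0 it was 3, the added gene being Bmf, which rests on about 6.01 and 2.00 reads. It was also 3 at a 1.5-fold cut-off and after correcting for length and GC content of the transcripts, where the added gene was Pmaip1. The number of genes that were 2-fold higher was 0 under each of these. With that correction the log2 ratio was 0.077 for Bcl2l11, which turned its sign, 0.25 for Bid, -1.10 for Pmaip1, -2.35 for Bnip3 and -0.59 for Bnip3l. The median log2 ratio became -0.59 for the BH3-only genes, -0.054 for the partners and 0.094 for the regulators, both on the other side of 0, and -0.17 for the apoptosome and caspase genes. With all members above 0 in 1 or both libraries the median was -0.63 for the BH3-only genes, -0.99 for the regulators and -1 for the FOXO targets. With a mean of 5 FPKM or more it was 0.63 for the regulators and -1.70 for the FOXO targets. With a pseudocount of 1 FPKM it was -1.16 for the FOXO targets and -0.51 for the apoptosome and caspase genes. Rescaling the libraries to the same median or upper quartile shifted ratios by less than 0.06 on the log2 scale. The causes were not tested. No paired analysis was possible because each group has 1 library and no test was made. Depth limits Bmf, Bik and Hrk, which rest on about 6 reads or fewer in each library.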

Other observations

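Genes that act with or after the BH3-only proteins were listed as well, and their lists were also chosen with earlier results known. Of 14 FOXO targets that could be compared, 8 were 2-fold lower in STAP-1 KO LSCs and none was higher, with a median log2 ratio of -1.34 over 12 genes, while 22.9% of all genes compared were lower and 12.3% were higher. The remaining target, Sesn3, which was named after its values were seen, was under the floor of 0.1 FPKM in WT and had the opposite direction, with 0.0684 FPKM in WT and 0.686 FPKM in STAP-1 KO LSCs. The most abundant were Cdkn1a, which is also in the p53 list, Klf6 at 397 FPKM in WT and 106 FPKM in STAP-1 KO LSCs and Cat, which encodes catalase, at 146 and 92.1 FPKM. Bcl2l11 and Bbc3, themselves known FOXO targets, had log2 ratios of -0.37 and -1.12, or 0.08 and -1.16 with the correction for length and GC content.

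Of 16 mitophagy genes that could be compared beside Bnip3 and Bnip3l, 5 were 2-fold lower and none was higher, beside 22.9% and 12.3% of all genes, with a median of -0.70. Sqstm1, which encodes the autophagy receptor p62, had 1050 FPKM in WT and 238 FPKM in STAP-1 KO LSCs. Tax1bp1, another receptor, had 452 and 227 FPKM and narrowly missed the cut-off, and Phb2, an inner membrane receptor, had 217 and 399 FPKM.

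Of 11 genes of the apoptosome, the caspases and their inhibitors, 3 were 2-fold lower and 1 was 2-fold higher, near the 22.9% and 12.3% of all genes. The median of -0.75 became -0.17 with the correction for length and GC content. Htra2 and Diablo, which encode mitochondrial proteins that relieve caspase inhibition, had higher values in the STAP-1 KO library, 61.2 and 104.6 FPKM for Htra2 and 56.7 and 82.6 FPKM for Diablo, and neither passed the cut-off.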
